A study of Mus musculus with 6 samples.

Results

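Binding of GATA4 and GATA6 was examined around 10 genes whose products mark or set the epithelial and the mesenchymal state, out of 21938 protein-coding genes of the mouse annotation. The rule lists the genes by name. They were Cdh1, Krt8, Krt18 and Krt19 on the epithelial side and Cdh2, Vim, Snai1, Snai2, Zeb1 and Zeb2 on the mesenchymal side. For each gene, the window held the gene body and 50 kb to either side of every annotated transcription start site (TSS), and a called region counted when it overlapped the window by at least 1 bp. All positions are in mm10 with GENCODE gene models.

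CUT&RUN, in which an antibody guides a nuclease to cut DNA next to a bound protein, was performed for GATA4 (3 libraries) and GATA6 (3 libraries) in mouse extra-embryonic endoderm (XEN) cells. All 6 libraries carry the genotype label 3F2. According to the methods of the study, 3F lines came from mice with the alleles R26 M2rtTA, Oct4-GFP and Col1a1 TetO-OKSmCh, and line 3F2 was derived under ES cell conditions, so that every library shared this background and no untreated or knockout group was compared. The labels do not say whether replicates were separate cultures, so that p-values may measure technical spread only, and the lists hold no expression values against which the cell type could be checked. Each library has a list of called regions, and each factor has a combined list of the regions called in all 3 of its libraries.

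E-cadherin (Cdh1) holds epithelial cells together at adherens junctions, and the keratins encoded by Krt8, Krt18 and Krt19 form the intermediate filaments of simple epithelia. N-cadherin (Cdh2) and vimentin (Vim) take their place in mesenchymal cells, and the zinc finger repressors SNAI1, SNAI2, ZEB1 and ZEB2 bind E-boxes of epithelial genes such as Cdh1 and lower their transcription. XEN cells derive from the primitive endoderm, an early embryonic epithelium whose parietal branch turns mesenchymal, and GATA4 and GATA6 are transcription factors of that lineage.

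The GATA4 libraries held 49597, 46646 and 48397 called regions and the GATA6 libraries 46484, 42446 and 44539. The median of the maximum signal, which is the highest fragment pileup within a region and is not scaled for depth, was 4 in every library. Chromosome 8, which carries Cdh1, held 11.9% to 14.4% of the regions of each library. The reads left per library after filtering are not given, so that signal was ranked only within a library.

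All 4 epithelial genes had a combined GATA4 region and a combined GATA6 region in the window, whereas 2 of the 6 mesenchymal genes (Vim and Snai1) had a combined GATA4 region and 0 of 6 had a combined GATA6 region. When a call in 2 of 3 libraries sufficed, all 4 epithelial genes still had both factors, and the mesenchymal genes with GATA4 rose to 4 of 6 (Snai2 and Zeb2 added, beside 65.3% of all protein-coding genes) and those with GATA6 to 2 of 6 (Vim and Zeb2, beside 60.4%). Single libraries decided the contrast between the epithelial and mesenchymal genes: without GATA4 replicate 3, Snai2 and Zeb2 had a common GATA4 region, without GATA6 replicate 1, Vim and Zeb2 had a common GATA6 region, and without GATA6 replicate 3, Vim did. The window length mattered too. With 10 kb to either side of a TSS and the gene body kept, 4 genes had a combined GATA4 region, namely Cdh1, Krt8, Vim and Snai1. Cdh1 stayed only through regions in its gene body, 23575 and 29297 bp from a TSS. For GATA6, 3 genes had one, and Cdh1 was again among them only through its gene body (13658 bp from a TSS). Krt18 and Krt19 fell out for GATA4, with nearest midpoints 11911 and 17710 bp from a TSS. With 100 kb, 6 genes had a combined region of each factor, and for GATA6 these included mesenchymal genes. The share of all genes was not computed for the 10 kb or 100 kb windows, or with a library left out. With the 50 kb windows, 6 of the 10 genes had a combined GATA4 region, beside 48.2% of all protein-coding genes. A combined GATA6 region was present at 4, beside 38.3% of all protein-coding genes. Vim and Snai1, 2 of the 10, had GATA4 without GATA6, as did 14.3% of all genes. Krt8 and Krt18 are neighbours whose windows share regions, so that the 4 epithelial genes are not 4 separate observations. Within 1 kb of a TSS, combined GATA4 regions were present at Krt8, Vim and Snai1 (3 of 10, beside 19.8% of all genes) and a combined GATA6 region at Krt8 (1 of 10, beside 13.8%). Cdh2, Snai2, Zeb1 and Zeb2 had no region common to all 3 libraries of either factor.

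The windows together held 15 combined GATA4 regions and 4 combined GATA6 regions. The latter number became 8, 11 and 8 without GATA6 replicate 1, 2 and 3, respectively, so that the GATA6 counts and shares given here rest on the call in all 3 libraries. By gene, the GATA4 regions numbered 5 at Cdh1, 5 at Krt8, 6 at Krt18, 2 at Snai1, 1 at Vim and 1 at Krt19, with 5 counted at both Krt8 and Krt18. The GATA6 regions numbered 1 at Cdh1, 2 at Krt8, the same 2 at Krt18, and 1 at Krt19. Among all genes, 1.65% had at least as many combined GATA4 regions in the window as Krt18, 3.28% as Cdh1 or Krt8, and 25.7% as Snai1.

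In the single libraries, Cdh1 had the most regions of the 10 genes in all 6, with 20, 12 and 16 in the GATA4 libraries and 12, 7 and 17 in the GATA6 libraries. Krt18 came next in 5 of the 6, with 8, 10 and 8 GATA4 regions and 5, 6 and 9 GATA6 regions. The exception was GATA6 replicate 1, where Zeb1 had 8.

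**Figure D1:**
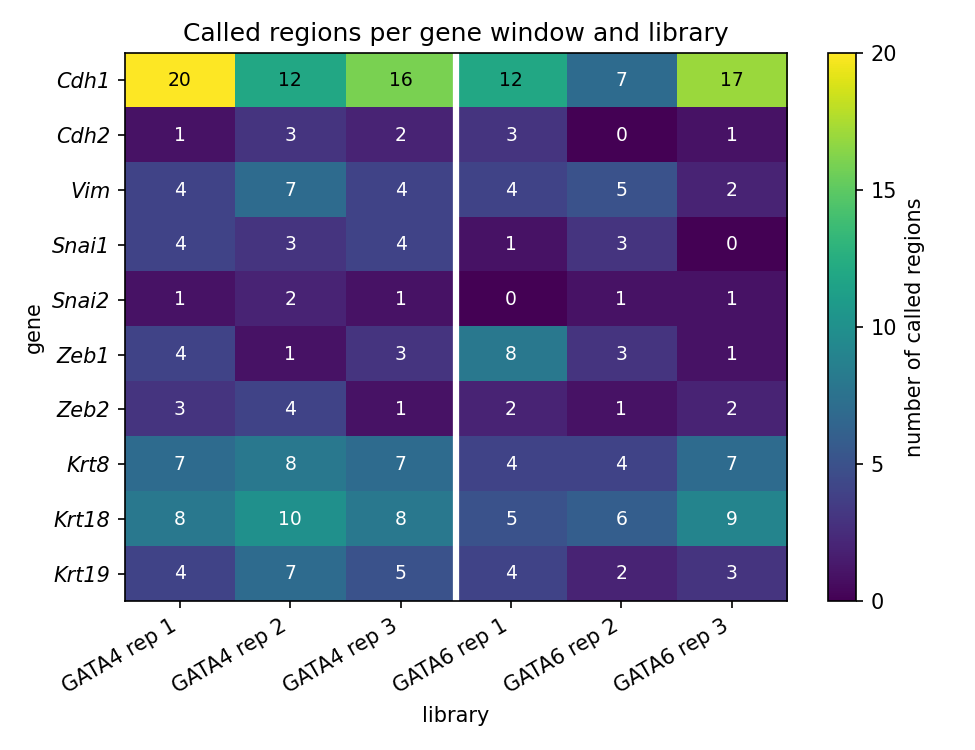
Number of called regions (colour scale and printed numbers) in the window of each of the 10 genes (rows) in each of the 3 GATA4 and 3 GATA6 libraries (columns). Cdh1 is highest in every library, with 7 to 20 regions, while Cdh2 and Snai2 range from 0 to 3.

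Of the other epithelial keratins, Krt8 had 7, 8 and 7 GATA4 and 4, 4 and 7 GATA6 regions, and Krt19 had 4, 7 and 5 GATA4 and 4, 2 and 3 GATA6 regions. For the mesenchymal filament gene Vim the GATA4 libraries had 4, 7 and 4 and the GATA6 libraries 4, 5 and 2. For Cdh2 they were 1, 3 and 2 against 3, 0 and 1. The ranges of both factors touched or overlapped at each of these genes. Of the repressor genes, Snai1 had 4, 3 and 4 GATA4 regions against 1, 3 and 0 GATA6 regions, and Snai2 had 1, 2 and 1 against 0, 1 and 1. Zeb1 had 4, 1 and 3 against 8, 3 and 1, and Zeb2 had 3, 4 and 1 against 2, 1 and 2. Zeb1 was the only gene of the 10 whose GATA6 mean exceeded its GATA4 mean, and 8 of its 12 GATA6 regions came from replicate 1.

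At no gene of the 10 did every GATA4 library exceed every GATA6 library in region number, or the reverse, beside 5.36% and 1.49% of all genes. Two-sided exact permutation tests per gene gave p from 0.2 (Snai1 and Krt19) to 0.9 (Zeb1), where 0.1 is the smallest value that 3 against 3 libraries allow. Measured as base pairs covered, the keratin pair did separate: Krt8 had 3238, 3041 and 3494 bp in the GATA4 libraries and 2787, 2028 and 2688 bp in the GATA6 libraries. Krt18 had 3821, 3735 and 3854 bp against 3336, 2867 and 3631 bp. These 2 genes, whose windows overlap, were the only ones of the 10 with non-overlapping groups on that scale. Both had more base pairs in every GATA4 library than in any GATA6 library, as did 7.29% of all genes. The share of all genes in the reverse direction is not given.

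Summed over the windows, the GATA4 libraries held 49, 49 and 45 regions and the GATA6 libraries 39, 28 and 36. The groups did not overlap. Since the GATA4 lists were also longer, the share of each list was compared, and the windows held 0.0989% ± 0.00603 of the GATA4 regions and 0.0769% ± 0.00959 of the GATA6 regions (SD, n = 3 each; two-sided exact permutation p = 0.1, the smallest possible). With the window shortened to 10 kb to either side of a TSS and the gene body kept, the difference fell from 0.0220 to 0.00209 percentage points (exact permutation p = 0.7).

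The windows were then set against their surroundings, since region density varies along chromosomes. The single GATA4 libraries had 73.3 ± 5.77 regions per Mb in the Krt8 window and 26.2 ± 1.44 (SD, n = 3) in the 1 Mb to either side of it. For GATA6 the Krt18 window had 66.7 ± 20.8 and its flanks 24.5 ± 1.80 regions per Mb. The Cdh1 window had 137 ± 34.2 GATA4 regions per Mb, its flanks 70.8 ± 8.74, and chromosome 8 as a whole 47.3. For GATA6, the Cdh1 window had 103 ± 42.8 and its flanks 74.5 ± 8.05 per Mb, so that the SDs of window and flanks overlapped. Thus, in the single libraries, the density around Cdh1 was high beyond the gene itself. Around Krt8 and Krt18 it was high in the windows and lower beside them. The combined lists gave 42.8 GATA4 and 8.55 GATA6 regions per Mb in the Cdh1 window, and 20.5 and 18 in its flanks. For GATA6 the Cdh1 window therefore lay below its flanks on that scale. The Krt8 window had 50 and 20 combined regions per Mb, and its flanks 8.5 and 4.

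**Figure D2:**
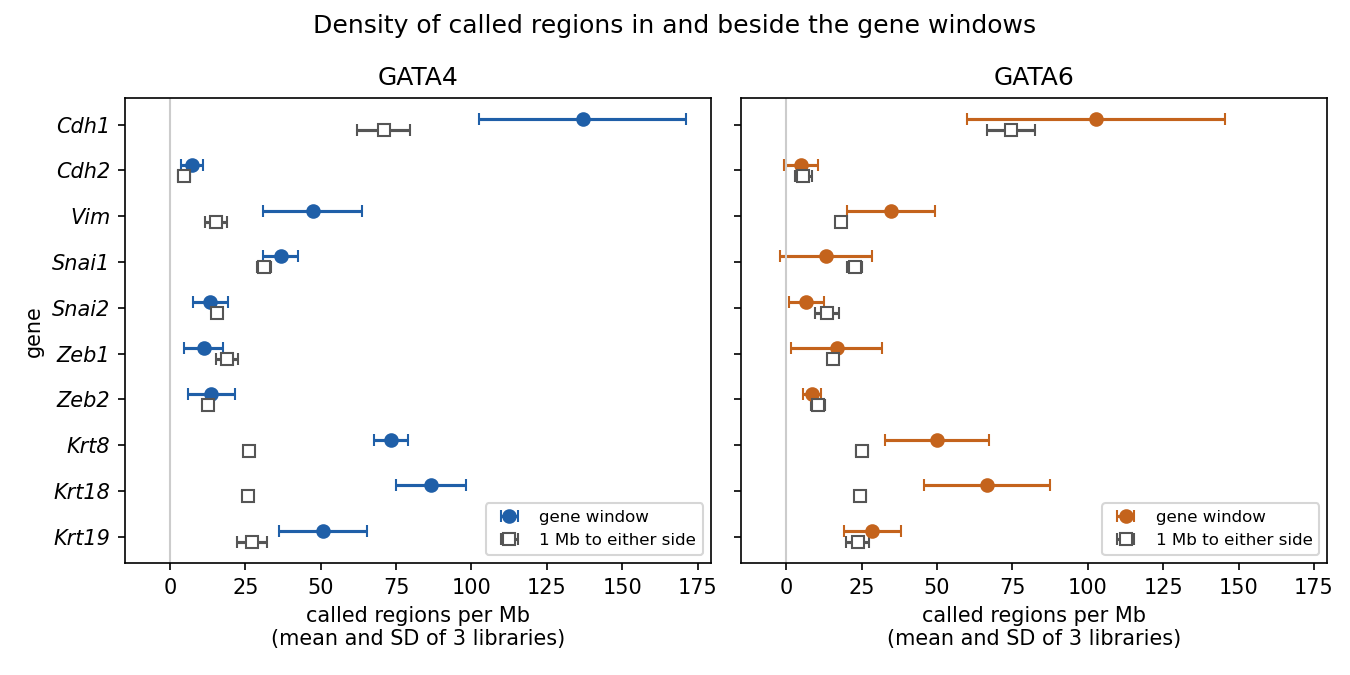
Called regions per Mb (mean and SD of 3 libraries) in each gene window (filled circles) and in the 1 Mb to either side (open squares), for GATA4 (left) and GATA6 (right), genes in rows. For GATA4 the Krt8, Krt18, Krt19, Vim and Cdh1 windows lie above their flanks with no overlap of the SDs, and the Cdh2, Snai2, Zeb1 and Zeb2 windows lie at 7.40 to 13.7 regions per Mb.

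Among the 4 genes without a common region, Zeb1 had 8 combined GATA4 and 7 combined GATA6 regions in the 1 Mb to either side of the window, which is 4 and 3.5 per Mb, beside 2.57 and 1.37 over the rest of its chromosome. Snai2 had 3 and 4 such regions in its flanks, Zeb2 had 1 and 0, and Cdh2 had 0 of either factor. At Vim, 9.48 combined GATA4 regions per Mb in the window stood beside 2.5 in the flanks. At Snai1 the window had 20 per Mb and the flanks 9.5, and at Krt19 the values were 9.53 and 10.

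Krt8 and Krt18 encode the type II and type I keratin that pair in the filaments of simple epithelia, and their start sites lie 23.7 kb apart on chromosome 15, with the genes transcribed away from each other. Their windows together held 6 combined GATA4 regions. The strongest by rank covered the Krt8 TSS (chr15:102004225-102004811, midpoint 36 bp upstream), with a maximum signal of 10, 6 and 10 in the 3 GATA4 libraries and a mean percentile of total signal of 92.7 within their lists. A GATA6 region covered the same TSS (chr15:102004047-102004615) with a maximum signal of 6, 8 and 10. This was 1 of 2 places in all 10 windows that were called in all 6 libraries. The 150 bases directly before the annotated Krt8 start are shown because they hold the only GATA word of the 4 promoter regions bound by GATA4 in the windows. A GATA word is the run AGATAA on either strand, or else the run AGATAG, and with the other first letter the run TGATAA or likewise the run TGATAG, and it is set in capitals. The sequence is chr15:102004483-102004632 on the minus strand, the strand of the gene, and the word starts 99 bases before the start.
Krt8 upstream: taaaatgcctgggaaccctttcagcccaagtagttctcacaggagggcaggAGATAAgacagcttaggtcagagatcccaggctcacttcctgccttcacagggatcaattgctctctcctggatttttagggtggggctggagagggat

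The region 9235 bp upstream of Krt8 (chr15:102013486-102013948) had a maximum signal of 6, 8 and 8 for GATA4 and was also called in 2 GATA6 libraries. The next, 11787 bp upstream, reached 9, 7 and 6 and was likewise called in 2 GATA6 libraries. Both lie between Krt8 and Krt18, and both hold a GATA word within 100 bp of the midpoint. The 151 bases around the midpoint of the first one (chr15:102013642-102013792, plus strand) show its word.
Krt8 upstream 9235: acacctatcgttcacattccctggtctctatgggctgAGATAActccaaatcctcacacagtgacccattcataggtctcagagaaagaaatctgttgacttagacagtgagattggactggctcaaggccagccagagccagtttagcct

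Past the 3' end of Krt8, regions lay 20191 bp from its TSS (maximum signal 9, 9 and 8) and 16180 bp from it (6, 6 and 5). The latter was not called in any GATA6 library and had the lowest mean percentile of the 15 GATA4 regions, 40.3. The sixth GATA4 region, 45589 bp downstream of the Krt18 TSS, was centred 4 bp from the TSS of Eif4b, a translation initiation factor gene, and belongs to the Krt18 window by distance only. Krt18 itself had no region within 1 kb of a TSS in any of the 6 libraries. The GATA6 region nearest to it, 2690 bp upstream (chr15:102024754-102026225), had a maximum signal of 5, 4 and 5 and was called in 2 GATA4 libraries. It holds no GATA word within 100 bp of its midpoint (chr15:102025415-102025565, plus strand), but 5 over its full length of 1472 bp.
Krt18 upstream 2690: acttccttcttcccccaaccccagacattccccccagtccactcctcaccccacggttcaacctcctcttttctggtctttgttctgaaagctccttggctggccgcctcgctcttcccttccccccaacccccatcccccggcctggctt

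**Figure D3:**
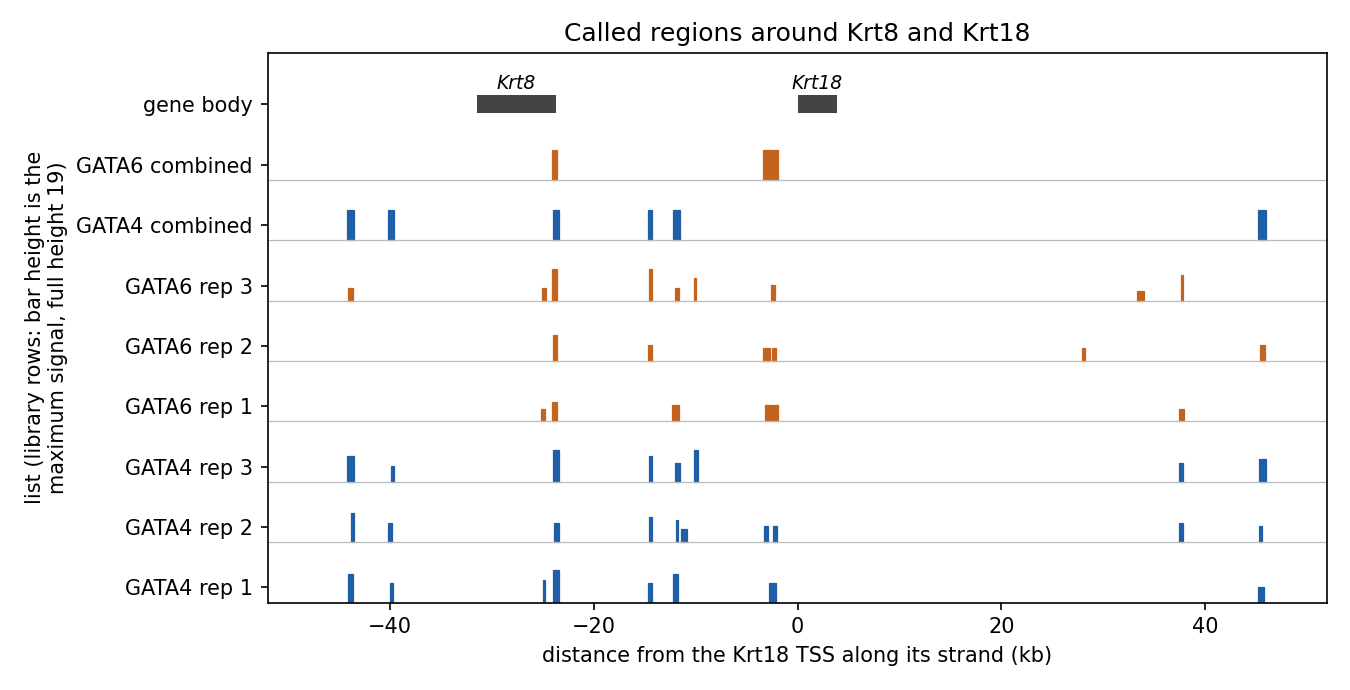
Called regions to scale around Krt8 and Krt18, by distance in kb from the Krt18 TSS along its strand (x axis), for the 6 libraries (bar height, maximum signal) and the 2 combined lists (bars of fixed height), with gene bodies in grey. The Krt8 start carries a bar in every row, and the Krt18 start in none.

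Krt19, the small type I keratin of simple and ductal epithelia, lies in the keratin cluster of chromosome 11. Its window had a single common region per factor, at the same place: chr11:100125537-100126440 for GATA4, with a maximum signal of 14, 15 and 11, and chr11:100125687-100126438 for GATA6, with 8, 6 and 10. This was the other place called in all 6 libraries, and its mean percentile was 94.7 in the GATA4 and 91.5 in the GATA6 libraries. It lies 17710 bp downstream of the Krt19 TSS but 4423 bp from the TSS of Krt13, so that the nearest gene was not Krt19. The bases around the GATA4 midpoint (chr11:100125914-100126064, plus strand) are shown for their 3 GATA words, the most among the stretches shown.
Krt19 downstream 17710: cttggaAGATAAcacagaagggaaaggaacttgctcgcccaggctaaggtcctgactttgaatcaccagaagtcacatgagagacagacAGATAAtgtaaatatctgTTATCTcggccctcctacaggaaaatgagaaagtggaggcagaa

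Close to the Krt19 start, each GATA4 library had a region within 1 kb of an annotated TSS, with a maximum signal of 10, 7 and 3, and no GATA6 library did. The regions of replicates 1 and 2 overlapped each other, whereas that of replicate 3 lay at another annotated TSS of the gene, so that the combined list held none.

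At Cdh1, the 5 combined GATA4 regions lay 26103, 25010 and 14511 bp upstream and 23575 and 29297 bp downstream of the nearest Cdh1 TSS. The strongest by rank of all 15 was that at 14511 bp (chr8:106588263-106589417), in an intron of the long non-coding RNA gene 1110028F18Rik. It had a maximum signal of 13, 12 and 9 and a mean percentile of 98.0. It was called in 2 of the 3 GATA6 libraries and so was missing from the GATA6 combined list. The bases at its midpoint (chr8:106588765-106588915, plus strand) hold a single GATA word.
Cdh1 upstream 14511: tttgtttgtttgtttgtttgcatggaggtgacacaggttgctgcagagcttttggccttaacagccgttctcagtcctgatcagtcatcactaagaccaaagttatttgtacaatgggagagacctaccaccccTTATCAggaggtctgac

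The pair at 26103 and 25010 bp had a maximum signal of 8, 6 and 6 and of 7, 12 and 8, held a GATA word each, and lay closer to the TSS of Gm10073 (3787 and 4880 bp) than to Cdh1. The downstream regions are in introns of Cdh1. The nearer one reached 7, 9 and 7 but ranked unevenly, with percentiles of 86.0, 84.8 and 11.3 in the 3 libraries, and the farther one reached 10, 7 and 11. The only combined GATA6 region, 13658 bp downstream in a Cdh1 intron (chr8:106617285-106618316), was weak, with a maximum signal of 5, 3 and 5, and had the lowest mean percentile of the 4 GATA6 regions, 58.2. The bases around its midpoint (chr8:106617726-106617876, plus strand) hold no GATA word, while the full region holds 2.
Cdh1 intron 13658: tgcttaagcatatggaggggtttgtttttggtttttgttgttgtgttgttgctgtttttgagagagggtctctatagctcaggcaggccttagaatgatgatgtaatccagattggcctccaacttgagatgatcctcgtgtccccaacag

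The Cdh1 promoter itself was called within 1 kb of the TSS in 4 of the 6 libraries, with a maximum signal of 9 and 7 in GATA4 replicates 1 and 3 and of 11 and 7 in GATA6 replicates 1 and 2. It was therefore in neither combined list. In GATA4 replicate 2 the nearest region lay 4222 bp from a TSS, and in GATA6 replicate 3 it lay 1577 bp away.

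**Figure D4:**
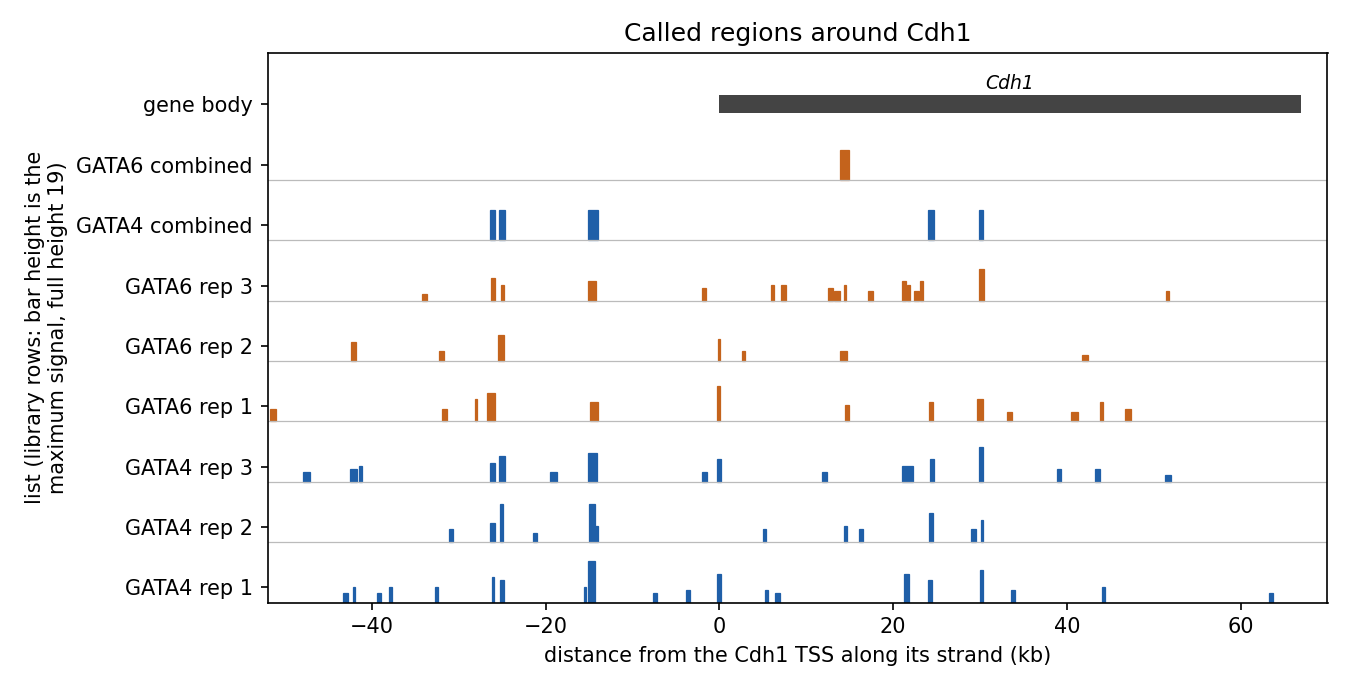
Called regions to scale around Cdh1, by distance in kb from the first Cdh1 TSS along its strand (x axis), for the 6 libraries (bar height, maximum signal) and the 2 combined lists (bars of fixed height), with the gene body in grey. Regions at the start are present in 4 of 6 libraries and in no combined list, and the region 14511 bp upstream has bars in all 3 GATA4 and 2 GATA6 libraries.

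Among the mesenchymal genes, Vim carried a GATA4 region over its TSS (chr2:13573319-13574149, midpoint 193 bp upstream), with a maximum signal of 4, 7 and 5 in the 3 GATA4 libraries. No GATA6 library had a region there. Along with the region 16180 bp past the Krt8 TSS, it was 1 of 2 of the 15 GATA4 regions that no GATA6 library held. Snai1 had 2 common GATA4 regions, of which the one over its TSS (chr2:167537688-167538344, midpoint 179 bp upstream) reached 6, 4 and 6 and ranked at percentiles of 61.6, 9.59 and 78.1. Its other region, 6691 bp upstream (chr2:167531215-167531792), reached 7, 7 and 7. Each of the 2 was called in 1 GATA6 library. The 150 bases before the annotated start of Vim (chr2:13573777-13573926) and of Snai1 (chr2:167538045-167538194) and the upstream Snai1 region (chr2:167531429-167531579) are shown on the plus strand, which is that of both genes. The promoter stretches hold no GATA word, and the upstream Snai1 stretch does.
Vim upstream: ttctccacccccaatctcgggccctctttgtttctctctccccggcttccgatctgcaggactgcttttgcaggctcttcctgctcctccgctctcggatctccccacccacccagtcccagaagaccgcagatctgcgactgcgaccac
Snai1 upstream: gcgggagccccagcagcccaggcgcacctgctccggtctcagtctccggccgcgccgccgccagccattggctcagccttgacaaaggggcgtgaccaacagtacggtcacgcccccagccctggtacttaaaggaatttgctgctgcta
Snai1 upstream 6691: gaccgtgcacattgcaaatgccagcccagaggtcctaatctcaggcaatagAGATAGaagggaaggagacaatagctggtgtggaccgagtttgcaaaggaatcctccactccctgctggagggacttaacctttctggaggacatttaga

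At the other repressor genes, regions close to a TSS were found in single libraries only. Snai2 had one in GATA6 replicate 2 and Zeb2 in GATA4 replicate 2, and Zeb1 and Cdh2 had none within 1 kb of a TSS in any of the 6 libraries. The highest maximum signal anywhere in the Cdh2 window was 3, 3 and 4 for GATA4, and 5 and 3 for GATA6 replicates 1 and 3, with no region in replicate 2. For Zeb1 it was 4, 3 and 3 for GATA4 and 5, 4 and 3 for GATA6. For Zeb2 it was 4, 7 and 3 for GATA4 and 5, 3 and 4 for GATA6. Apart from the 7 at Zeb2, these values lie around the median of 4 of all called regions. At Krt8 the highest maximum signal was 10, 9 and 10 for GATA4 and 6, 8 and 10 for GATA6.

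Position and sequence were next compared with the full lists. GATA words lay within 100 bp of the midpoint in 9 of the 15 GATA4 regions (60%, exact 95% interval 32.3% to 83.7%), beside 39.9% of all 8282 combined GATA4 regions. Without GATA4 replicate 1, 7 of the 19 regions common to the remaining libraries had a word (36.8%). The whole-list share at that setting was not computed. Since 4 of the 15 (26.7%) were centred within 1 kb of a TSS, beside 48.6% of the whole list, the distal regions were taken alone: 8 of 11 had a word (72.7%, interval 39.0% to 94.0%), beside 59.8% of all distal GATA4 regions. Both intervals contain the value of the whole list. Of the 4 GATA6 regions 1 had a word there (25%), beside 33.1% of all 5170. Over their full length, all 4 held words: 5 at Krt19, 1 at Krt8, 5 at Krt18 and 2 at Cdh1. The count over full length was not made for the whole list. In the RefSeq table of promoters (GRCm38.p6, 250 bases before to 50 after the start), which held 5 of the 10 genes in 8 entries, only the Krt8 entry had a GATA word, beside 29.8% of all 32851 promoters. The letters are a description and do not mark a bound site.

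The 2 factors shared few of these regions at the level of the combined lists: 2 of the 15 GATA4 regions (13.3%, exact 95% interval 1.66% to 40.5%) overlapped a combined GATA6 region, beside 45.2% of the whole GATA4 list, whose value lies above the interval. The regions counted are not independent, as neighbouring ones share a locus. They were also less often centred within 1 kb of a TSS (26.7% against 48.6%). Their median percentile was lower (78.6 against 85.0), and no comparison matched for position or rank was made. Of the 4 GATA6 regions 2 overlapped a GATA4 region, beside 72.3% of the whole GATA6 list. Counted by single libraries, 6 of the 15 GATA4 regions were called in 2 GATA6 libraries, 5 in 1, 2 in all 3 and 2 in none. Over the whole GATA4 list, 45.3% were called in all 3 GATA6 libraries and 9.03% in none. Hence most of the GATA4 regions near these genes had GATA6 calls that did not recur in all 3 libraries.

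Recurrence was limited throughout. Of 99 merged GATA4 regions in the windows, 71 came from 1 library, 13 from 2 and 15 from all 3 (15.2%, beside 7.12% genome-wide). Of 80 merged GATA6 regions, 61, 15 and 4 did, and all 3 libraries held 4.57% of the merged GATA6 regions genome-wide. It differed between genes, with 6 of 12 merged GATA4 regions at Krt18 and 5 of 11 at Krt8 found in all 3 libraries, but 0 of 8 at Zeb1 and 0 of 6 at Cdh2. By rank within the libraries, the 15 GATA4 regions ran from a mean percentile of 40.3 to 98.0 with a median of 78.6, beside a median of 85.0 over the whole combined list. For the 4 GATA6 regions the median was 78.3, beside 83.4.

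**Figure D5:**
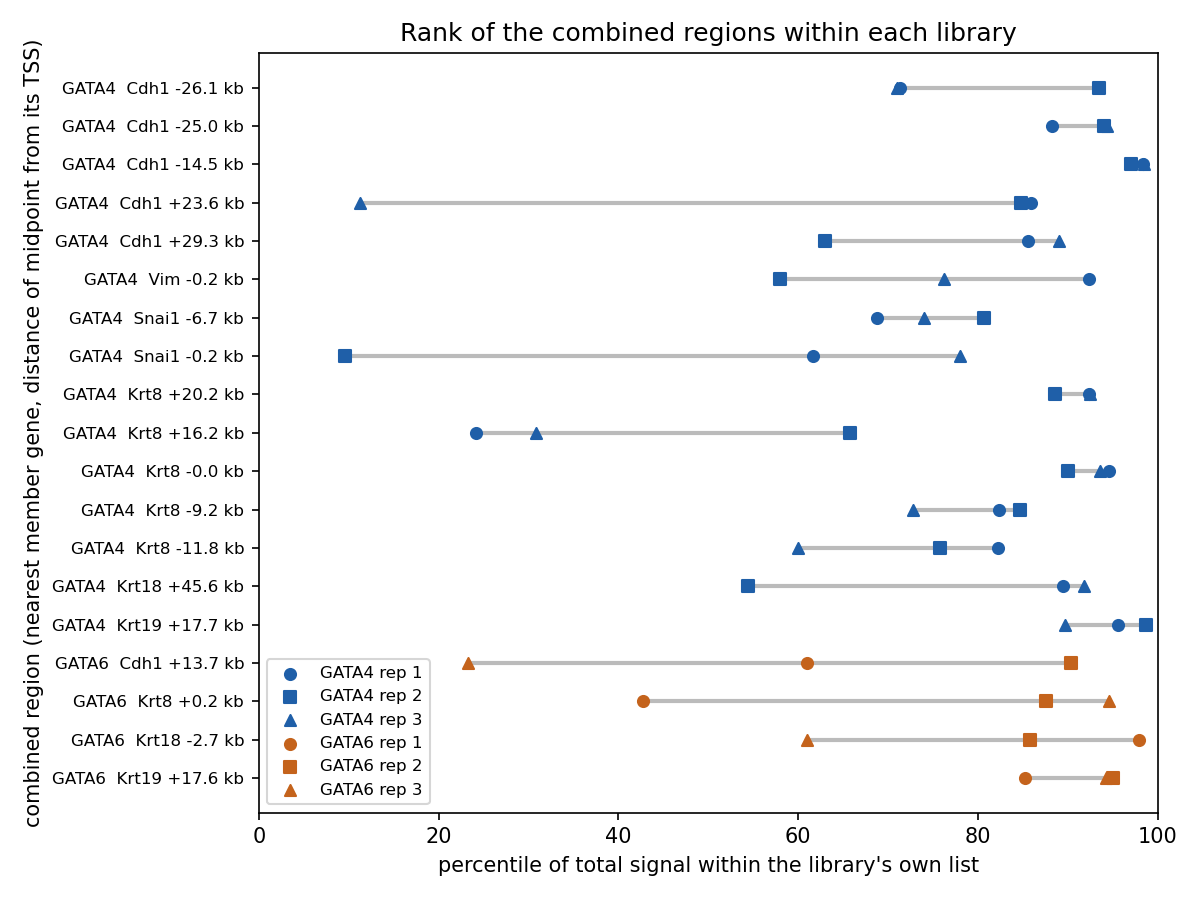
Percentile of total signal within the library's own list (x axis) for each of the 15 combined GATA4 and 4 combined GATA6 regions (rows, with the nearest of the 10 genes and the distance of the midpoint from its nearest TSS), 1 marker per library and a grey line over their range. The Cdh1 region 14511 bp upstream, the Krt8 TSS region and the Krt19 region stay near or above the 90th percentile in the GATA4 libraries, whereas the Snai1 TSS region spans 9.59 to 78.1.

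Further genes of both states were counted in the same way. Of 20 other epithelial genes, 13 had a combined GATA4 and 11 a combined GATA6 region in the window, and 6 had neither. Of 16 other mesenchymal genes, 6 had GATA4, 5 had GATA6 and 9 had neither. Of all genes, 48.2% had GATA4, 38.3% had GATA6 and 47.3% had neither, and no test was made of these lists. Combined regions of both factors within 1 kb of a TSS were found at 2 epithelial genes, Jup and Esrp2, and at 0 mesenchymal genes, beside 10.5% of all genes. Jup, which encodes the junction protein plakoglobin, had 5 combined GATA4 regions in its window and 1 combined GATA6 region. Esrp2, an epithelial splicing regulator that lies on chromosome 8 as Cdh1 does, had 6 and 5. Cdh3, the cadherin gene next to Cdh1, had 0 of either.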

How the data were processed

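CUT&RUN for GATA4 and GATA6 (3 libraries each) was performed on XEN cells, 500000 per reaction. The submitters' processing notes name mm10, Bowtie2 2.3.4.1, Picard, SAMtools, bedtools and SEACR 1.3. According to the methods, the authors removed duplicates and blacklisted reads and called regions per library by a numeric threshold. The methods also name an IgG antibody. For the calls they give the threshold and do not mention IgG. The deposited lists give for each region the total signal and maximum signal, unscaled for depth. The deposited combined lists hold positions, and equalled the recomputed overlap of 3 replicates for all 8282 GATA4 and 5170 GATA6 regions. The reads left per library after filtering are not given. The methods name a further line and fewer replicates, and the labels were followed.

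Genes and TSSs came from GENCODE release M21 and sequence from GRCm38. Touching or overlapping regions of different lists were merged. Libraries were compared by two-sided exact permutation, and shares are given with Clopper-Pearson intervals, which cover counting error only. GATA words were sought within 100 bp of the midpoint. The members and gene lists were chosen with earlier results of these data known. All 10 genes were named. Of other genes, those with both factors within 1 kb of a TSS were named, and Cdh3, Eif4b, Krt13, Gm10073 and Trdmt1 as neighbours. Regions named were, for each gene and list, the one nearest a TSS and the one of highest mean percentile, and the rest of the 15 and 4 were named after their values were seen. Sequences were shown for regions in the gene body or within 10 kb, those at Cdh1 and Krt19 farther away and at Krt8 9235 bp upstream being chosen after seeing values, and bases before the start replaced midpoints where a region covered a TSS. Alternatives were lists of equal length (42446 regions) or the upper 50% by signal, other windows and overlap rules, 2 of 3 replicates, other motif windows, and leaving out each library. Simulated lists and sequences with planted answers were used to test the code. Python 3.11.15, numpy 2.4.6, scipy 1.17.1, pysam 0.24.0 and matplotlib 3.10.9 were used.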

Additional observations from a re-analysis of the deposited data

How the results depend on the processing

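Of 80 values under alternative settings, 59 stayed within the limits set and 21 moved. The limit was 1.5 times a count, or the interval of the share with a GATA word. For the 15 alternatives of the share of regions in the windows, only the sign was checked. It reversed in 0 of them, whatever the size of the difference. Among the 15, the replicate block keeps the main difference by construction and could not reverse. When 2 of 3 replicates sufficed, genes with a region went from 6 to 8 for GATA4 and from 4 to 6 for GATA6: Snai2 gained 1 GATA4 region, Zeb2 1 of each factor and Vim 3 GATA6 regions, while Cdh2 and Zeb1 stayed at 0. The 3 GATA6 regions in the Vim window lay at the neighbour Trdmt1. The 15 combined GATA4 regions became 28 when 2 of 3 replicates sufficed, 7 with 10 kb windows and 24 with 100 kb windows. The 4 combined GATA6 regions became 19, 2 with the upper 50% of each list and 10 with 100 kb windows, and 8 to 11 when each GATA6 library was left out in turn (8 without replicate 1, 11 without replicate 2 and 8 without replicate 3), so that this count rests on the requirement of all 3 libraries. The share of GATA4 regions with a GATA word was 60%, 36.8% to 75% with each GATA4 library left out, and 25% in the GATA6 list. Genes with non-overlapping region numbers rose from 0 to 2 by base pairs covered, to 1 with lists of equal length, with stricter lists, with 10 kb windows and with 100 kb windows, and to 1 to 2 with each library left out. Apart from base pairs covered, the share of all genes was not computed at these settings. Leaving out a library sets 2 against 3, where groups separate more easily, so the rise is not a result about these genes. GATA4 had the higher share of its regions in the windows under all 15 alternatives, the replicate block by construction, with exact permutation p from 0.1 to 0.7. This included the windows without Cdh1 (0.0158 percentage points). With the replicate number as a block the difference was 0.0220 percentage points (exact sign-flip permutation p = 0.25). Deviations of libraries with the same number had correlations from 0.00102 to 0.00148. Of all merged regions, 83.2% came from 1 library and so had no deviation in the other factor. The correlations therefore cannot show whether the numbers pair the libraries. The reads left per library are unknown, so that a window without a region says only that none was called.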

Other observations

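The keratin genes around the members were counted after their values were seen. On chromosome 15, 4 of 26 keratin genes had a combined GATA4 region in the window and 3 had a combined GATA6 region, beside 48.2% and 38.3% of all genes. Those with GATA4 were Krt79, Krt78, Krt8 and Krt18, which lie next to each other at one end of the cluster, while the other 22 had none. The numbers of combined GATA4 regions were 2, 3, 5 and 6 in that order along the chromosome, with adjacent windows sharing regions. On chromosome 11, 15 of 27 keratin genes had a combined GATA4 region and 11 had a combined GATA6 region, and the 12 without GATA4 were the first 12 along the chromosome, from Krt222 to Krt40. Krt42, at the other end, had 4 regions of each factor, while Krt19 had 1 of each. No test was made of these counts.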
